A study of Mus musculus with 8 samples.

Results

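The D-type cyclins Ccnd1, Ccnd2 and Ccnd3, their kinases Cdk4 and Cdk6, and the inhibitors Cdkn1a, Cdkn1b, Cdkn2a, Cdkn2b and Cdkn2c were followed across both cultures of the S89G-DMP1 study. The 10 gene symbols were matched to Ensembl mouse gene identifiers, and all 10 were found among the 47729 genes of the neural stem cell (NSC) count table and the 40562 genes of the astrocyte (AST) count table. The rule that sets the 10 genes uses symbols and no measured value, but the genes were chosen with earlier results of these data known. S89G-DMP1 mice carry a knock-in point mutation in dentin matrix protein 1 on a C57BL/6 background. The knock-in is present in every cell, its selection cassette was removed by crossing to a FLP line, and controls were wild-type (WT) C57BL/6 mice. The methods describe the breeding of homozygous mutants, but whether the sampled mutant mice carried 1 or 2 mutant alleles is not given by the labels. NSCs came from the sub-ventricular zone and were grown as neurospheres in DMEM/F12 with N2 supplements, with 3 WT-NSC and 3 S89G-NSC libraries. Astrocytes came from the cortex and were grown in DMEM with 10% fetal bovine serum, with 1 WT-AST and 1 S89G-AST library. Every sample is labelled with an age of 10 weeks, whereas the methods describe adult mice of another stated age and both sexes for the astrocyte cultures. The sources used here do not say whether the NSC triplicates are separate mice or cultures, so that p-values measure the spread between these libraries, which may be technical.

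D-type cyclins accumulate when growth factors are present and bind Cdk4 or Cdk6. The complexes phosphorylate the retinoblastoma protein and its relatives, which releases E2F transcription factors and lets cells enter S phase. INK4 inhibitors (Cdkn2a, Cdkn2b, Cdkn2c) bind the kinases themselves, whereas the Cip/Kip inhibitors (Cdkn1a, Cdkn1b) bind cyclin and kinase together. In neural progenitors of the adult brain, Ccnd2 is the D cyclin best known for supporting division, and silencing of Cdkn2a by the Polycomb protein Bmi1 is known to sustain self-renewal.

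NSC libraries held between 2354615 and 2588130 counted reads, and the AST libraries held 14008670 (WT) and 13016924 (S89G). Dmp1 itself was counted 16 to 21 times in each WT-NSC library and 3 to 6 times in each S89G-NSC library, and 2 and 119 times in the WT-AST and S89G-AST libraries. Between libraries of 1 genotype the chi-square divided by the number of genes was 1.07 to 1.51 over 11136 genes, where counting noise alone gives 1. This does not show whether the libraries came from separate RNA. All 6 NSC libraries held the progenitor transcription factor Sox2 at 747 counts or more and Nes, which encodes nestin, at 4572 or more. The WT-AST library went against its label. Its 10 astrocyte markers summed to 162 CPM (counts scaled to a common library total), against 1515 CPM in S89G-AST, with 90 counts of Gfap, 8 of Aqp4 and 8 of Slc1a3, while its 9 fibroblast and meningeal genes summed to 5406 CPM, against 2145 CPM. In S89G-AST too, fibroblast and meningeal genes lay above the astrocyte markers, and mural genes summed to 4024 CPM, against 3340 CPM in WT-AST. Endothelial markers summed to 193 CPM in WT-AST and 71.0 CPM in S89G-AST. The AST libraries also differed in sex-linked RNA, with 12172 and 74 counts of Xist and 0 and 1277 of Ddx3y in WT-AST and S89G-AST. For AST, genotype, cell composition and sex therefore cannot be told apart, and every AST value below rests on 1 library per genotype.

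In NSCs, Cdk6 and Cdkn2a fell 2.22-fold and 1.95-fold, and none of the 10 genes was called higher. Ccnd1 and Ccnd2 were called slightly lower (log2 fold changes of -0.12 and -0.13). With 1 library left out, Ccnd1 kept that call in 1 of 6 fits and Ccnd2 in 0 of 6. Ccnd3, Cdk4, Cdkn1a, Cdkn1b, Cdkn2b and Cdkn2c did not pass the test. Genotypes were compared over all 11194 genes that passed the low-count filter by the quasi-likelihood test of edgeR, with p adjusted after Benjamini and Hochberg and called under 0.05, and all 10 genes passed that filter. Of them, 4 were called lower (2 to 3 with any 1 library left out) and 0 higher, beside 8.76% of all tested genes called lower, 7.08% called higher and 15.8% called in either direction. At an unadjusted p under 0.05 in edgeR, 5 of the 10 passed, 1 of them higher. The highest p of these 5 was 0.0081 for Cdkn2c (edgeR), and 1783 of the 11194 tested genes had a p at or below it. DESeq2 called 3 lower and 0 higher, where it called 7.6% of all tested genes. The median log2 fold change of the 10 genes was -0.12, and that of all tested genes was 0.00. For 5 of the 10 the CPM ranges of the genotypes did not overlap, which held for 30.7% of all tested genes. An exact, 2-sided permutation test over 3 libraries against 3 gave p = 0.1 for each of these 5, the smallest value it can give.

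Per kilobase of exon, Ccnd1 and Ccnd2 were the most abundant of the 10 genes in every NSC library, with either of the gene lengths described below for the comparison of levels. Ccnd1 (ENSMUSG00000070348, GRCm38 chr7:144929931-144939925, minus strand) encodes cyclin D1, a common end point of growth factor and Wnt signaling. Its normalized counts were 2364, 2488 and 2359 CPM in the WT-NSC libraries and 2199, 2214 and 2209 CPM in the S89G-NSC libraries. Every S89G-NSC library lay below every WT-NSC library. In the edgeR fit it differed by -8.18% (log2 fold change -0.12, standard error 0.04, adjusted p = 0.046). This call was marginal, since DESeq2 gave an adjusted p of 0.0596. It was kept without WT-NSC replicate 1 (adjusted p = 0.0304, edgeR) but lost without WT-NSC replicate 2 or 3 or any of the 3 S89G-NSC libraries, where the adjusted p from edgeR lay between 0.0571 and 0.180. The annotated gene LTO1 overlaps Ccnd1 on the opposite strand, and the sources used here do not say whether reads were counted by strand, so reads in the overlap may belong to either gene.

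Ccnd2 (ENSMUSG00000000184, chr6:127125162-127152193, minus strand) encodes cyclin D2. Its values were 2421, 2392 and 2368 CPM in WT-NSC and 2221, 2202 and 2157 CPM in S89G-NSC, again without overlap. The edgeR fit gave -0.13 on the log2 scale (standard error 0.04, adjusted p = 0.0384), and DESeq2 an adjusted p of 0.0385. With each of the 6 libraries left out in turn, the adjusted p lay above the threshold in edgeR, the lowest being 0.0623, so that the call rested on having all 6. Ccnd3 (ENSMUSG00000034165, chr17:47505051-47599691, plus strand), the D cyclin best known from lymphoid cells and muscle, was far lower per kilobase. It measured 80.9, 82.4 and 74.7 CPM in WT-NSC and 81.3, 74.9 and 64.6 CPM in S89G-NSC. These ranges overlapped, and the log2 fold change of -0.11 (standard error 0.09) did not pass (adjusted p = 0.487, edgeR). Ccnd2 is overlapped by 2 antisense genes and Ccnd3 by Bysl on the opposite strand.

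The kinases behaved differently from each other. Cdk4 (ENSMUSG00000006728, chr10:127063534-127067920, plus strand) measured 505, 488 and 518 CPM in WT-NSC and 499, 511 and 526 CPM in S89G-NSC. Its genotype ranges overlapped, with a log2 fold change of 0.02 (95% interval -0.08 to 0.13, adjusted p = 0.825, edgeR). Cdk6 (ENSMUSG00000040274, chr5:3341485-3531008, plus strand), the kinase that also limits differentiation in several progenitor types, was counted 135, 145 and 125 times in WT-NSC and 67, 64 and 45 times in S89G-NSC. Scaled, these were 56.9, 56.3 and 49.9 CPM against 28.2, 27.4 and 18.0 CPM, and the lowest WT-NSC library held more than the highest S89G-NSC library. Cdk6 fell from 54.4 ± 3.87 to 24.6 ± 5.65 CPM (SD, n = 3 libraries each), a 2.22-fold lower level with a log2 fold change of -1.15 (standard error 0.13, adjusted p = 3.7e-10, edgeR). Fits without 1 library ranged from -1.26 to -0.97, and 6 of 6 passed. In bulk RNA, fewer cells that express a gene and less RNA of it per cell cannot be told apart. Tspan31 overlaps Cdk4, and 2 antisense genes overlap Cdk6.

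The TPM values that the authors deposited for the same libraries were less even than the counts. They gave Cdk6 as 4.72, 6.99 and 15.9 TPM in WT-NSC and 6.60, 6.07 and 3.94 TPM in S89G-NSC, so that the genotypes overlapped there. On log2(TPM + 1), limma called 0 of the 10 genes (Cdk6: -0.51 on that scale, adjusted p = 0.609). Ccnd2 ranged from 283 to 1077 TPM within WT-NSC where its CPM ranged from 2368 to 2421.

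Neither Cip/Kip inhibitor passed the test in NSCs. Cdkn1a (ENSMUSG00000023067, chr17:29090976-29100727, plus strand) encodes p21, the classic p53 target. It measured 526, 502 and 552 CPM in WT-NSC and 498, 490 and 506 CPM in S89G-NSC, with overlapping ranges and a log2 fold change of -0.08 (standard error 0.05, adjusted p = 0.348, edgeR). Cdkn1b (ENSMUSG00000003031, chr6:134920401-134925513, plus strand) encodes p27, which holds resting cells out of the cycle and is controlled largely through protein turnover. Its values were 157, 143 and 157 CPM in WT-NSC and 168, 164 and 152 CPM in S89G-NSC. The log2 fold change of 0.08 (standard error 0.07, adjusted p = 0.490, edgeR) did not pass, and the genotype ranges overlapped.

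Among the INK4 inhibitors, Cdkn2a fell, Cdkn2b and Cdkn2c did not pass. Cdkn2a (ENSMUSG00000044303, chr4:89274471-89294653, minus strand) encodes 2 unrelated proteins from separate first exons, p16Ink4a, which inhibits Cdk4 and Cdk6, and p19Arf, which stabilizes p53. Gene-level counts cannot separate them. It was counted 155, 172 and 177 times in WT-NSC and 64, 81 and 105 times in S89G-NSC, or 65.3, 66.8 and 70.7 CPM against 27.0, 34.7 and 42.1 CPM. No S89G-NSC library reached the lowest WT-NSC library, and the S89G-NSC libraries were the more variable. The mean went from 67.6 ± 2.77 to 34.6 ± 7.58 CPM (SD, n = 3), a 1.95-fold lower level with a log2 fold change of -0.96 (standard error 0.12, adjusted p = 1.9e-09, edgeR). Fits without 1 library gave -1.14 to -0.81 and kept the call in 6 of 6. In the deposited TPM values the genotypes were also apart for Cdkn2a, with 169, 193 and 214 TPM in WT-NSC and 86.7, 103 and 124 TPM in S89G-NSC.

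Cdkn2b (ENSMUSG00000073802, chr4:89306299-89311039, minus strand), which encodes the TGF-beta responsive p15 and lies next to Cdkn2a, was the least counted of the 10. It had 45, 52 and 35 counts in WT-NSC and 37, 27 and 43 in S89G-NSC. The ranges overlapped, and the log2 fold change of -0.25 had a 95% interval of -0.63 to 0.12 (adjusted p = 0.421, edgeR), so a decrease of the size seen for its neighbour Cdkn2a lies outside that interval. Cdkn2c (ENSMUSG00000028551, chr4:109660876-109667189, minus strand) encodes p18, an inhibitor linked to cell cycle exit of neural precursors. Its values were 136, 137 and 151 CPM in WT-NSC and 170, 158 and 157 CPM in S89G-NSC. All S89G-NSC libraries lay above all WT-NSC libraries, yet the log2 fold change of 0.19 (standard error 0.07) stayed just short of the threshold (adjusted p = 0.0507 in edgeR and 0.255 in DESeq2). It passed without WT-NSC replicate 3 (log2 fold change 0.25, adjusted p = 0.0282, edgeR) and with RLE size factors (adjusted p = 0.0485).

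**Figure D1:**
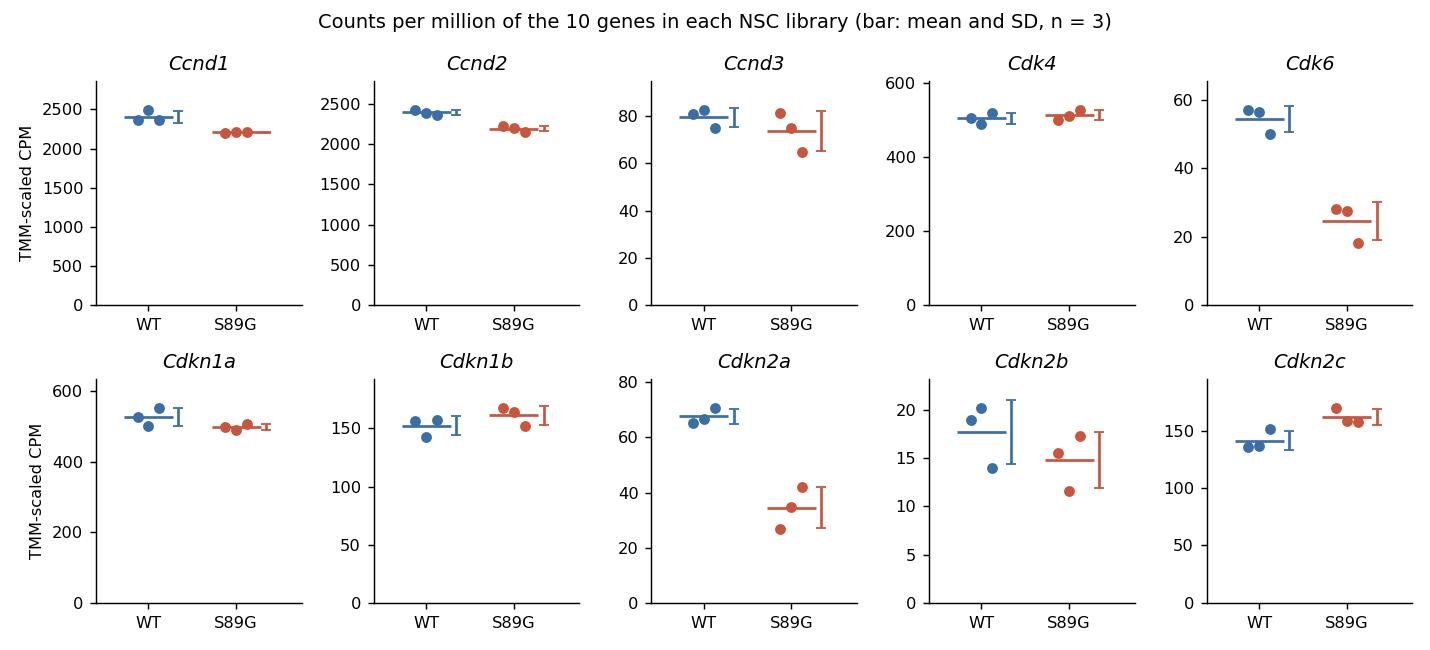
Normalized counts (TMM-scaled CPM, vertical axis from 0) of each of the 10 genes in the 3 WT-NSC (blue) and 3 S89G-NSC (red) libraries. Points are libraries, horizontal lines are means and bars are SDs, and relative to its level the gap between genotypes is widest for Cdk6 (54.4 against 24.6 CPM) and Cdkn2a (67.6 against 34.6 CPM).

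The start regions of the 2 genes that fell most are shown because they fell together and because Cdkn2a has 2 starts. Each line gives the 250 bases before a RefSeq start (GRCm38.p6), on the gene's own strand, with capitals marking 8-letter E2F-type stretches found by a search for TTTCGCGC, TTTGGCGC and TTTCCCGC on both strands, 3 strings of which none contains another. The first Cdkn2a window, chr4:89294620-89294869, lies before the upstream first exon, the one of p19Arf. The second, chr4:89282193-89282442, lies before the first exon of p16Ink4a, and the Cdk6 window is chr5:3343643-3343892.
Cdkn2a, upstream start: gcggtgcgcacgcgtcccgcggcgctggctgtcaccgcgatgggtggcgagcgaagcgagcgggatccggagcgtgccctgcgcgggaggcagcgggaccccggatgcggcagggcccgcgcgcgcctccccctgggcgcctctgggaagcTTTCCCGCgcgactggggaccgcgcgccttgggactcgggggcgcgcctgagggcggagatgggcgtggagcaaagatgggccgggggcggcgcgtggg
Cdkn2a, downstream start: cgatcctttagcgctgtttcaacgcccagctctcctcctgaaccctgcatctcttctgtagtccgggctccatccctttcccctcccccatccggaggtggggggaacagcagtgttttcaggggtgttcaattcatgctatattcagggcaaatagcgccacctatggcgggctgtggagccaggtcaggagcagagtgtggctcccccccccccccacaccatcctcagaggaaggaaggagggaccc
Cdk6: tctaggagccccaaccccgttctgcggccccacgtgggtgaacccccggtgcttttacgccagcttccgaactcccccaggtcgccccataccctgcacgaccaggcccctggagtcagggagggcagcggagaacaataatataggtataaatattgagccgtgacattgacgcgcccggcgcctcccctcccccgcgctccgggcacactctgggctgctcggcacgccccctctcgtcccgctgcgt
The upstream Cdkn2a window held the letters TTTCCCGC, with their first base 99 bases before the start, and neither the downstream Cdkn2a window nor that of Cdk6 held any of the searched letters. Windows were found for 8 of the 10 genes, 12 windows in all, and the upstream Cdkn2a window was the only 1 of them with a match. Over all 32851 windows of the same length, 1.53% held a match, and so did 9 of 29 windows of the RB-E2F partners described further on. The upstream Cdkn2a window was rich in G and C (78.4%, against 60.0% for the downstream window, 66.0% for Cdk6 and a median of 52.4% over all windows). A match describes letters only and is no evidence of binding.

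In the AST libraries, the inhibitors Cdkn2c and Cdkn1b differed most between genotypes, and both were higher in S89G-AST. There is no test with 1 library per genotype. Log2 ratios of S89G-AST to WT-AST are of TMM-scaled CPM with 2 counts added, and intervals are 95% exact binomial intervals that cover counting error only. Cdkn2c went from 110 to 529 counts (8.69 and 36.8 CPM, log2 ratio 2.06, interval 1.78 to 2.39), a 4.18-fold higher level. Cdkn1b went from 615 to 2270 counts (48.6 and 158 CPM, log2 ratio 1.70, interval 1.57 to 1.83), or 3.24-fold higher. These 2 of the 10 genes were at least 2-fold higher and 0 were at least 2-fold lower, beside 17.3% and 12.8% of the 15680 genes counted (30.1% in either direction), so the share among the 10 was near that of all genes.

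The scale decides the sign of small AST ratios. By TMM, 6 of the 10 ratios were above 0, beside 50.5% of all genes counted. With library size alone in place of TMM, the median log2 ratio of all genes moved from 0.01 to 0.30, and 22.2% of genes were at least 2-fold higher and 9.66% lower. Ccnd1 had 18887 and 20121 counts in WT-AST and S89G-AST and a log2 ratio of -0.09, which turned to 0.20 by library size alone. Ccnd2, with 32522 and 41549 counts, had a ratio of 0.17 (0.46 by library size alone). Ccnd3 was lower on both scales, with 2293 and 1775 counts and ratios of -0.55 and -0.26.

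Both kinases were higher in S89G-AST than in WT-AST. Cdk4 had 1612 and 2229 counts (127 and 155 CPM, log2 ratio 0.28). Cdk6 had 810 and 1578 counts (64.0 and 110 CPM, log2 ratio 0.78, interval 0.65 to 0.90), and by library size alone its ratio of 1.07 passed 2-fold. Its sign was thus opposite to that in NSCs, and the difference between the cultures was not tested. Cdkn1a, at 5666 and 7651 counts, had a ratio of 0.25. Cdkn2a had 792 and 594 counts (62.6 and 41.3 CPM) and a ratio of -0.60, or -0.31 by library size alone, the same sign as in NSCs. Cdkn2b, at 491 and 503 counts, had a ratio of -0.15 that turned to 0.14 by library size alone. Beside these ratios, 8 of 10 astrocyte markers were at least 2-fold higher and 7 of 9 fibroblast and meningeal genes at least 2-fold lower in S89G-AST. Over all genes counted, the shares higher and lower were 17.3% and 12.8%. Microglial genes summed to 495 and 692 CPM in WT-AST and S89G-AST, and the part of cell composition in the ratios was not tested.

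**Figure D2:**
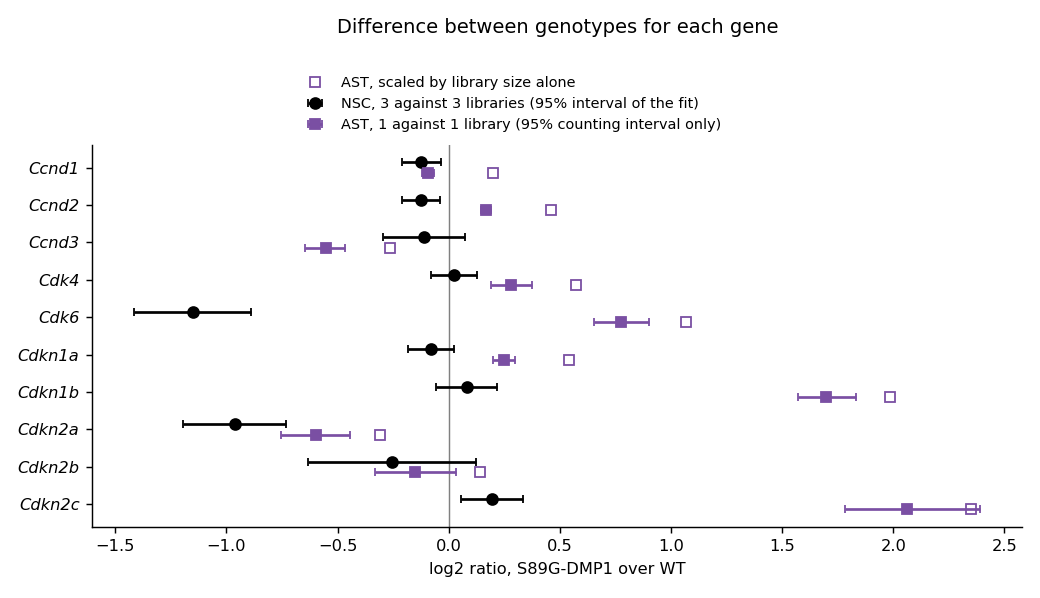
Log2 ratio of S89G-DMP1 to WT (horizontal axis) for each of the 10 genes in NSC (black circles, 95% interval of the edgeR fit, 3 against 3 libraries) and in AST (filled squares, 1 against 1 library, 95% counting interval; open squares, scaled by library size alone). Cdk6 lies at -1.15 in NSC and 0.78 in AST, and Cdkn2a lies below 0 in both.

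To compare levels between genes, CPM were divided by 1 length per gene, recovered from the authors' AST counts and FPKM values. By that scale the order in WT-NSC was Ccnd2 (1460 ± 16.1 CPM per kb, SD, n = 3), Ccnd1 (1142 ± 34.8), Cdk4 (470 ± 14.2), Cdkn1a (449 ± 21.3), Cdkn2c (79.0 ± 4.82), Cdkn2a (77.4 ± 3.17), Ccnd3 (67.2 ± 3.45), Cdkn1b (52.5 ± 2.81), Cdk6 (18.4 ± 1.31) and Cdkn2b (12.7 ± 2.36). Of these neighbours, Cdk4 and Cdkn1a, and Cdkn2c and Cdkn2a, overlapped between libraries. In S89G-NSC the order of the first 5 was the same, Cdkn2a stood eighth at 39.6 ± 8.67 CPM per kb, and Cdk6 was last at 8.31 ± 1.91, overlapping Cdkn2b at 10.6 ± 2.10. Except for Cdkn2b (1393 against 1390 bases), the recovered lengths are shorter than the summed exons of the annotation, to unequal degrees. They are 1639 against 9409 bases for Ccnd2, 2105 against 4709 for Ccnd1 and 874 against 1172 for Cdkn2a. With summed exon length the ratio of Ccnd1 to Ccnd2 was 1.95 to 2.08 in the NSC libraries, against 0.760 to 0.810 by recovered length, so that which of the pair is the higher per length was not settled. Summed exon length also placed Ccnd3 ninth (9.04 CPM per kb in WT-NSC), below Cdkn1b (33.5) and Cdkn2b (12.7), and Cdkn2a (57.7) above Cdkn2c (52.6, with overlapping libraries) in WT-NSC.

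Shares within a role showed where the mix of members differed. Cdk4 exceeded Cdk6 per kb by 23.8 to 28.6 times in the WT-NSC libraries and by 48.7 to 80.2 times in the S89G-NSC libraries, without overlap. By summed exon length the ratios were 37.3 to 44.7 and 76.1 to 125, again apart, but in the deposited TPM values they were 32.0 to 128 and 86.4 to 178 and overlapped. The ratio was 5.48 in WT-AST and 3.89 in S89G-AST. Among the INK4 inhibitors, Cdkn2a held 45.7% ± 0.319 (SD, n = 3) of the summed CPM per kb in WT-NSC and 28.0% ± 5.05 in S89G-NSC, while Cdkn2c held 46.7% ± 1.33 and 64.5% ± 5.06. The INK4 sum itself was 169 ± 5.74 CPM per kb in WT-NSC and 141 ± 6.79 in S89G-NSC. In AST, Cdkn2a held 68.6% in WT and 50.9% in S89G, and Cdkn2c 4.66% and 22.1%. Among the D cyclins the mix hardly differed by genotype in NSCs, with Ccnd1 at 42.8% ± 0.768 in WT-NSC and 42.8% ± 0.528 in S89G-NSC. Cdkn1a held 89.5% ± 0.241 of the Cip/Kip sum in WT-NSC and 88.4% ± 0.645 in S89G-NSC. NSC and AST shares come from separate pipelines and are given side by side without a test.

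**Figure D3:**
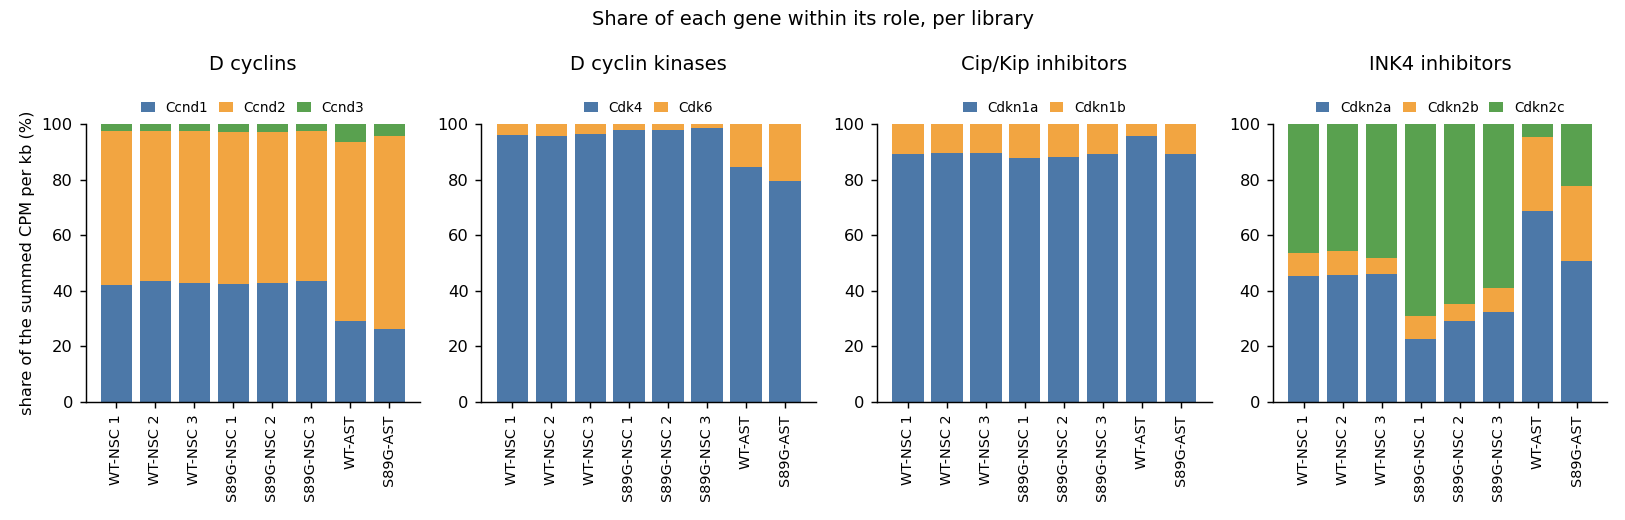
Share of each gene in the summed CPM per kb of its role (vertical axis, percent, from 0 to 100) in each of the 8 libraries, with 1 panel for each role and 1 colour for each gene. The Cdkn2a segment of the INK4 panel is between 45.5% and 46.1% in the WT-NSC libraries and between 22.5% and 32.5% in the S89G-NSC libraries.

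Genes around the D cyclin kinases were counted in 6 lists written from general knowledge, 168 different genes in all, of which 157 were tested in NSCs. Ccna2 and Cdk1 belong to the RB-E2F and the proliferation lists, and Pcna to the turnover and the proliferation lists. Of 33 RB-E2F partners tested in NSCs (pocket proteins, E2Fs, later cyclins and kinases and the other inhibitors), 7 were called higher and 0 lower by edgeR, beside 7.08% and 8.76% of all tested genes, with a median log2 fold change of 0.14. DESeq2 called 1 of them, Ccna2. E2f5, an E2F that pairs with the pocket protein p130, rose from 12.6, 15.5 and 12.8 CPM to 18.1, 22.3 and 21.3 CPM (log2 fold change 0.58 ± 0.18, standard error, adjusted p = 0.0197, edgeR). Ccne2, the cyclin that acts with Cdk2 after the D cyclins, rose 1.36-fold (adjusted p = 0.0074, edgeR). Ccna2, the S phase cyclin, rose 1.22-fold (adjusted p = 4.4e-04, edgeR) and was the steadier of these, being called without each library in turn. Lin54, Wee1 and Cdk1 were called with log2 fold changes of 0.35, 0.34 and 0.21, but in only 2, 2 and 3 of the 6 fits with a library left out, E2f5 in 2 and Ccne2 in 4.

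Of 22 proliferation readouts tested in NSCs, 17 were called higher and 0 lower (10 and 0 in DESeq2), beside 7.08% and 8.76% of all tested genes, with a median log2 fold change of 0.27 and called values between 0.19 and 0.49. Mki67, the gene of the Ki-67 antigen, rose from 1066, 1021 and 1086 CPM in WT-NSC to 1388, 1275 and 1397 CPM in S89G-NSC. Ccnb2, a mitotic cyclin, rose 1.40-fold, Aurkb and Aurka, mitotic kinases, 1.28-fold and 1.27-fold, and Birc5 (survivin) 1.28-fold. In the AST libraries 19 of 22 were at least 2-fold higher and 0 lower, beside 17.3% and 12.8% of all genes counted, with a median log2 ratio of 1.88. Mki67 had 14.5 CPM in WT-AST and 230 CPM in S89G-AST, Ccnb1 1.98 and 38.1 CPM, and Plk1 3.48 and 36.2 CPM. The AST libraries also placed 13 of 35 RB-E2F partners at least 2-fold higher and 0 lower. E2f7 and E2f8, which are among the E2Fs that act as repressors, went from 32 to 195 and from 16 to 247 counts. Ccna2 went from 49 to 748 counts. Ccna1 went from 0 to 69 counts, which is at least 20.2-fold higher when WT-AST is set to 3 counts.

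Of 35 regulators on the mitogen side of D cyclin transcription tested in NSCs, 9 were called lower and 2 higher (6 and 1 in DESeq2), beside 8.76% and 7.08% of all tested genes, with a median log2 fold change of -0.12. Mycn, a Myc family member that drives D cyclin expression in neural precursors, had 7.59, 12.04 and 9.98 CPM in WT-NSC and 3.79, 1.71 and 4.01 CPM in S89G-NSC. At these low levels it fell 3.08-fold (adjusted p = 1.1e-04, edgeR), the largest decrease among the 35 tested. The standard error on the log2 scale was 0.32, so the size of the fold is imprecise. Etv5, a transcription factor induced by FGF and ERK signaling, fell 1.47-fold from 831, 841 and 832 CPM to 570, 587 and 552 CPM. Fos, an immediate early gene, fell 1.62-fold, and Tcf7l1, a mostly repressive TCF of the Wnt pathway, 1.63-fold. The antiproliferative genes Btg1 and Tob1 fell as well, 1.44-fold and 1.35-fold, and all 6 of these decreases were called without each library in turn. The receptor Egfr rose 1.13-fold (adjusted p = 0.0082, edgeR), and Gli2, a hedgehog effector counted few times, rose 2.20-fold but was called in only 2 of 6 fits with a library left out. In AST, 12 of 37 were at least 2-fold higher and 2 lower, beside 17.3% and 12.8% of all genes counted. The hedgehog targets Gli1 and Ptch1 had 19 and 180 and 382 and 2449 counts in WT-AST and S89G-AST, the Wnt target Axin2 84 and 644, and Mycn 1 and 81, at least 23.8-fold higher, whereas Fosl1 (608 and 148) and Klf4 (1686 and 570) were at least 2-fold lower.

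For the Cdkn2a-Cdkn2b locus, 24 regulators and neighbours were tested in NSCs, and 4 were called higher and 1 lower, beside 7.08% and 8.76% of all tested genes, with a median log2 fold change of 0.02. Bmi1, the Polycomb repressor of Cdkn2a, rose from 79.2, 93.6 and 103 CPM in WT-NSC to 126, 123 and 140 CPM in S89G-NSC (log2 fold change 0.49 ± 0.08, standard error, 1.41-fold), without overlap and in every fit with a library left out. Suz12, a core subunit of the other Polycomb complex, rose 1.23-fold and was called in 4 of these 6 fits. The Id genes, which restrain bHLH and Ets factors, went both ways. Id3 rose 1.39-fold, and Id2 fell by a log2 fold change of -0.58, from 89.3, 87.4 and 70.7 to 46.8, 59.9 and 58.2 CPM. Mtap, a metabolic gene next to Cdkn2a and Cdkn2b, was called at 1.18-fold higher in the fit of all 6 libraries and in 1 of 6 with a library left out. In AST, 3 of 27 were at least 2-fold higher (Ezh2, with 109 and 428 counts, Id2 and Id1) and Tbx3 (116 and 45 counts) at least 2-fold lower. Over all genes counted, 17.3% were at least 2-fold higher and 12.8% lower. Bmi1 there had 84.8 CPM in WT and 58.5 CPM in S89G.

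For p53 targets and control genes, 0 of 24 tested in NSCs were called higher and 2 lower, a share near the 8.76% of all tested genes called lower, with a median log2 fold change of -0.02, and both were called by DESeq2 as well. Plk2, a stress-responsive kinase, fell 1.23-fold and Trp53inp1 1.18-fold (adjusted p = 1.7e-04 and 0.0038, edgeR), the latter in 5 of 6 fits with a library left out. In AST, 4 of 28 were at least 2-fold higher and 4 lower, which became 6 and 1 by library size alone, beside 17.3% and 12.8% of all genes counted (22.2% and 9.66% by library size alone). Rprm, Bbc3, Ddit4l and Fas were the higher genes, and Perp (1104 and 214 counts in WT-AST and S89G-AST), Xpc, Sfn and Ccng1 (18701 and 10101) the lower.

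Of 22 turnover and assembly genes tested in NSCs, 3 were called higher and 0 lower, beside 7.08% and 8.76% of all tested genes, with a median log2 fold change of 0.10. Cks2, a small subunit of cyclin-dependent kinases, rose 1.52-fold from 32.9, 33.8 and 34.3 CPM to 51.0, 49.6 and 53.3 CPM. Dtl, the substrate receptor that directs p21 to degradation in S phase, rose 1.33-fold, and Cul1, the scaffold of the ligase that degrades p27, 1.19-fold, the latter in 4 of 6 fits with a library left out. In AST, Dtl and Cks2 were at least 2-fold higher, and Hsp90aa1, a chaperone that helps fold Cdk4, had 8716 counts in WT-AST and 209 in S89G-AST. Hsp90aa1 has related copies in the genome, and its count is uncertain where reads were split between them.

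Some astrocyte markers differed with genotype in the NSC libraries beside all of these lists. Of 10 astrocyte markers, 8 were tested, and 4 were called higher and 0 lower, beside 7.08% and 8.76% of all tested genes. The same shares stand beside the counts of the marker lists below. The sum of the 10 was 2547 to 2696 CPM in WT-NSC and 3520 to 3633 CPM in S89G-NSC. Fabp7 had 2214, 2184 and 2377 counts in WT-NSC and 3020, 3170 and 3450 in S89G-NSC. Sox9 had 548, 513 and 573 against 539, 520 and 514, and Gfap at most 6 in any NSC library. Oligodendrocyte lineage markers summed to 193 to 202 CPM in WT-NSC and 126 to 150 CPM in S89G-NSC, with 2 of 3 tested called lower. Progenitor markers overlapped in sum, at 4167 to 4426 and 4305 to 4362 CPM, with 2 of 8 tested called higher. Neuron markers overlapped as well, at 1186 to 1333 and 1219 to 1240 CPM, with 1 of 5 tested called lower, Syt1, which had 144, 169 and 146 counts in WT-NSC and 12, 22 and 21 in S89G-NSC. Microglial markers reached at most 7.16 CPM in any NSC library, with Cx3cr1, Csf1r, Tmem119 and Itgam at 0, and fibroblast and meningeal genes at most 29.6 CPM, with Col1a2, Dcn, Lum and Tbx18 at 0. The part of these marker shifts in the values of the 10 genes was not tested.

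**Figure D4:**
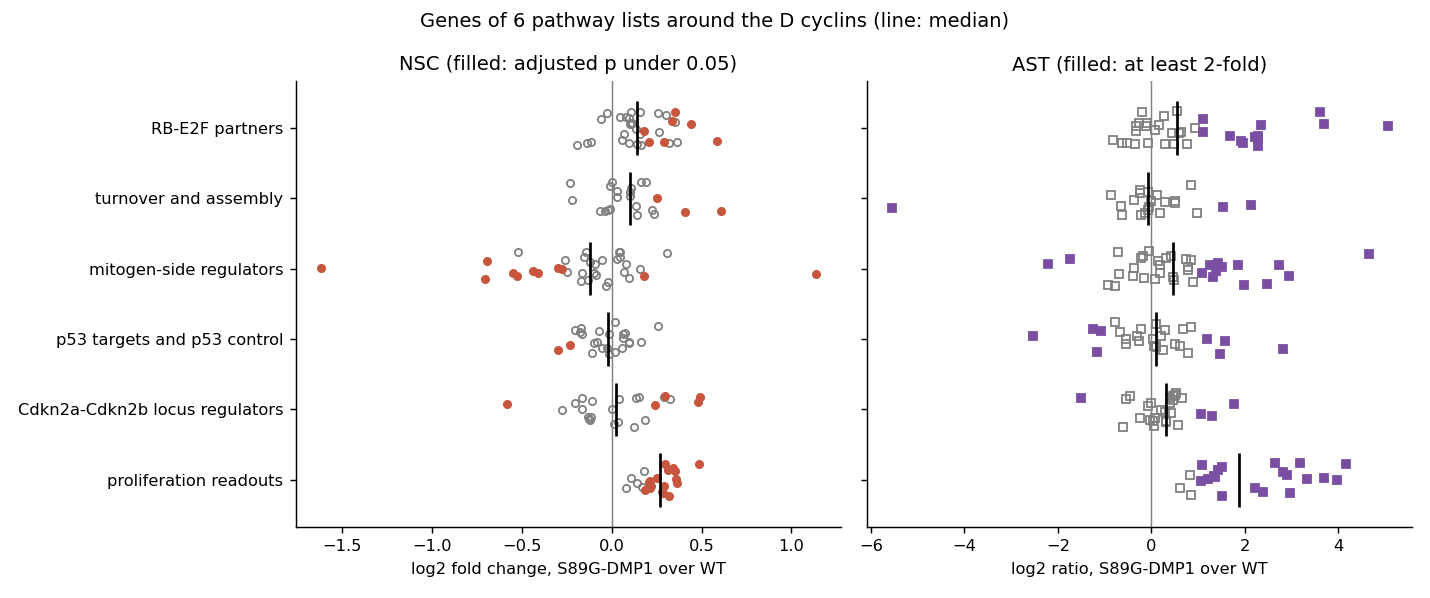
Log2 fold change in NSC (left, circles, filled where the adjusted p was under 0.05) and log2 ratio in AST (right, squares, filled where at least 2-fold) of each gene in 6 lists, S89G-DMP1 over WT, with a vertical line at each list's median. In NSC the medians run from -0.12 for mitogen-side regulators to 0.27 for proliferation readouts, and in AST the proliferation readouts have a median of 1.88. Vertical position within a list is spread at random.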

How the data were processed

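RNA sequencing libraries of 3 WT-NSC, 3 S89G-NSC, 1 WT-AST and 1 S89G-AST cultures were examined. For both cultures the authors deposited gene counts that were not normalized, with FPKM values for AST and TPM values for NSC. Per the labels, AST reads were aligned with TopHat2 2.0.9 and Bowtie2 2.0.6, and NSC tables were made with HISAT2, StringTie and featureCounts on GRCm38. Versions of the latter tools, and the build and counter for AST, are not given in the sources used here. No per-sample column lacked a condition.

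Counts were analysed in R 4.3.3 with edgeR 4.0.16 (filterByExpr, TMM, quasi-likelihood test, genotype as the only term, Benjamini-Hochberg over all 11194 tested genes, threshold 0.05), because the methods name no test for these tables. AST log2 ratios were taken after TMM scaling and addition of 2 counts, for genes that reached 10 counts in 1 of the libraries. A library with at most 3 counts was set to 3 for a lower bound. Tables and figures were made with Python 3.11.15, pandas 2.3.3, scipy 1.17.1 and matplotlib 3.10.9. Tested on simulated data, the NSC procedure called 94 of 100 genes changed 2-fold and 51 of 99 with a log2 change of 0.5. It called 10 of 10892 left as they were (11091 genes in all). The simulation gave every gene the same dispersion, set by hand, and changed fewer genes than were called here. These rates therefore need not hold for the real libraries. Totals of 2354615 to 2588130 counts per NSC library limit genes with few counts, and AST intervals cover counting error only.

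The 10 genes, the lists and the alternatives were chosen with earlier results of these data known. All 10 genes are named. Of each list, up to 6 called NSC genes in each direction and up to 4 AST genes past 2-fold in each direction, by size of change, are eligible, and the others are only counted. Replicate numbers did not pair the libraries (correlation of deviations 0.028, -0.0099 and -0.017 for equal numbers). Alternatives were DESeq2 1.42.0, other scalings and filters, limma 3.58.1 on TPM, thresholds of 1.5-fold and 4-fold for AST, a replicate block and each library left out. Gene positions and summed exon lengths are from GENCODE M21, promoter windows from RefSeq (GRCm38.p6). Protein sequences were not used here.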

Additional observations from a re-analysis of the deposited data

Results flagged for a closer look

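Among the 10 genes, and among the named list genes with an AST difference of at least 2-fold, there were 6 for which every S89G-NSC library lay on the same side of every WT-NSC library, the NSC difference was called by edgeR, and the single S89G-AST library differed from the single WT-AST library in the other direction under each scaling tried. The difference between the cultures was not tested for any of them, since AST has 1 library per genotype. Of all genes tested in NSCs, 30.7% had ranges without overlap and 15.8% were called. Of all genes counted in AST, 50.5% had a ratio above 0. The share of all genes that meet the whole rule was not counted. Among the 10 genes these were Cdk6, with a log2 fold change of -1.15 in NSC and a log2 ratio of 0.78 in AST, and Ccnd2, with -0.13 and 0.17. Ccnd2 kept its NSC call in 0 of 6 fits with a library left out. Etv5 had -0.55 in NSC and 1.39 in AST, and Id2 had -0.58 and 1.30. Mycn had -1.62 in NSC and a fitted 4.67 in AST, where the WT-AST library held 1 count and the value depends on the prior count. Tob1 had -0.44 and 1.44. The WT-AST library was low in astrocyte markers (162 CPM summed, against 1515 CPM in S89G-AST), and the part of this in the opposite directions was not tested.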

How the results depend on the processing

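The decreases of Cdk6 and Cdkn2a kept their direction under every alternative and their call under every one run on counts, with adjusted p from 1.1e-15 to 0.619 for Cdk6 and from 5.7e-14 to 0.078 for Cdkn2a over all alternatives in edgeR, DESeq2 and limma. On log2(TPM + 1) and log2(TPM + 0.1), limma gave -0.51 and -0.57 for Cdk6, -0.88 and -0.88 for Cdkn2a, -0.14 and -0.14 for Ccnd1, and -0.091 and -0.092 for Ccnd2, none past the threshold, and 0.054 and 0.055 for Ccnd3, the other sign. These settings called 0 of the 10 genes and 0 higher and 0 lower genes in the lists. Ccnd1 was also lost in DESeq2 (-0.12) and with no filter (-0.12), and Ccnd2 with no filter (-0.12), which left 2 of the 10 called lower. With each library left out in turn, log2 fold changes were -0.14 to -0.10 for Ccnd1, -0.13 to -0.12 for Ccnd2, 0.16 to 0.25 for Cdkn2c and -0.0020 to 0.045 for Cdk4, whose sign turned without WT-NSC replicate 2 (-0.0020). The number called lower was then 2 to 3 and higher 0 to 1. Cdkn2c was called with RLE size factors (0.20), which made 1 of the 10 higher. Over the lists, 31 genes were called higher and 12 lower, against 15 higher and 9 lower in DESeq2, and with a library left out 20 (without S89G-NSC replicate 3) to 27 and 9 to 14. The labels do not say that equal replicate numbers mark a pair. A replicate block called 1845 genes in all and changed the call of none of the 10 (Cdk6 -1.15, Cdkn2a -0.96, Cdkn2c 0.19 with an adjusted p of 0.0502 in edgeR), and 33 higher and 12 lower in the lists. The cause of these differences was not tested.

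In AST, log2 ratios less the median of all genes were -0.10 for Ccnd1, 0.16 for Ccnd2 and 0.24 for Cdkn1a. They were -0.043, 0.22 and 0.30 on log2(FPKM + 1). With at least 50 counts in either library the ratios were -0.066 for Ccnd1 and 0.20 for Ccnd2, and with at least 10 counts in both -0.057 and 0.20. A threshold of 4-fold left 1 of the 10 higher. One of 1.5-fold added Cdk6 (1.71-fold) to the higher genes and made 1 lower, Cdkn2a. In the lists, 51 genes were at least 2-fold higher and 8 lower. A 4-fold threshold gave 23 and 3, a 1.5-fold threshold 20 lower, library size alone and log2(FPKM + 0.1) 5 lower each, and log2(FPKM + 1) 4 lower. Counts of higher genes moved as well, by library size alone from 12 to 17 of the 37 mitogen-side regulators.

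Shares within a role depend on the length used. In WT-NSC and S89G-NSC, Ccnd1 was 42.8% and 42.8% of the D cyclins by recovered length, 70.3% and 69.6% by deposited TPM, and 65.9% and 66.0% by summed exon length, an alternative chosen after the data were seen. In WT-AST and S89G-AST it was 29.2% and 26.3%, and 51.9% and 48.1% by summed exon length. Cdk4 was 96.2% and 98.3% of the kinases in WT-NSC and S89G-NSC, 98.3% and 99.1% by TPM and 97.6% and 98.9% by summed exon length, and in AST 84.6% and 79.5%, then 89.5% and 85.9%. Cdkn2c was 46.7% and 64.5% of the INK4 sum in WT-NSC and S89G-NSC, 38.2% and 58.5% by TPM, and 42.8% in WT-NSC by summed exon length. In AST it was 4.66% and 22.1%, and 3.83% and 18.5% by summed exon length.

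Cdkn2b had the fewest counts of the 10 genes in NSC (27 to 52 per library) and the widest standard error (0.19). In AST there is no measure of error beyond counting.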
